A study of Mus musculus with 4 samples.

Results

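Adjacent places without Th17 reads were examined in a table of captured methylated DNA from mouse CD4+ T cells. The table lists 10000 regions, each with a region number that rises along the chromosomes, and every region has a Th17 value of 0. A region was taken when its number differed by exactly 1 from that of another listed region on the same chromosome, and runs of such neighbours were joined into stretches. This gave 314 regions, 3.14% of the table, in 156 stretches. Of these, 154 held 2 regions and 2 held 3 regions, so there were 158 adjacent pairs. The region numbers and the listing of regions with no Th17 read chose the members, so neither is a finding.

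Cells of 4 populations were taken from female Balb/c mice (spleen and lymph node), with 1 library for each population. The sources used here do not give the age of the mice. Naive T cells were CD3+CD4+ with high CD45RB. Th1 and Th17 cells were CD3+CD4+ with low CD45RB and secreted interferon gamma alone or IL-17A alone, respectively. These 3 populations were stimulated with PMA (10 ng/ml) and ionomycin (500 ng/ml) for 3 h and then sorted, whereas regulatory T cells (Treg, CD3+CD4+CD25++) were sorted first and stimulated afterwards. Each population is therefore defined by its sort gate, and whether animals were pooled is also not stated. Genomic DNA was enriched for methylated fragments with a methyl-CpG-binding domain protein and sequenced.

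A methyl-CpG-binding domain binds DNA in which the cytosine of a CpG is methylated, so reads accumulate where methylated CpGs are dense. Methylation of neighbouring CpGs is often alike over short distances. In T helper cells, loss of methylation at promoters and intronic enhancers accompanies the activity of lineage genes. The number of reads in a region also depends on its CpG content and on library depth.

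The 3 libraries with reads differed in depth. One read was worth 0.996 deposited units in naive, 1.68 in Th1 and 0.352 in Treg cells, so a Treg value rests on the most reads. Over the whole table the libraries held 34277 naive, 19548 Th1 and 74571 Treg reads. With 1 library per population there is no replicate and no test between populations. All intervals below are exact 95% intervals on reads and cover counting error only. The worth of 1 Th17 read cannot be recovered from zeros, so no fold against Th17 is given and no upper limit can be set on the Th17 level.

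In 3 stretches every region was a promoter. They lay at Gm12445, a predicted gene, at Cck, which encodes the peptide hormone cholecystokinin, and at Spata20, named as a spermatogenesis-associated gene. RefSeq promoter sequences (GRCm38.p6) matched 3 of the 5 genes with a promoter region in a stretch, by symbol. The 250 bases before the start of Cck and of Spata20 are shown here to give the sequence toward which these stretches point, with each CpG, the unit the capture protein reads, in capitals. The search was for CG, which reads the same on both strands.
Cck: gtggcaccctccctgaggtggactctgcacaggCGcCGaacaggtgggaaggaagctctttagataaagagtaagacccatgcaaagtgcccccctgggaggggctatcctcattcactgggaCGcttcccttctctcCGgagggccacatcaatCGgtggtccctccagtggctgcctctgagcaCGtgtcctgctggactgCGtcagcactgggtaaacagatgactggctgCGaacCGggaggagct
Spata20: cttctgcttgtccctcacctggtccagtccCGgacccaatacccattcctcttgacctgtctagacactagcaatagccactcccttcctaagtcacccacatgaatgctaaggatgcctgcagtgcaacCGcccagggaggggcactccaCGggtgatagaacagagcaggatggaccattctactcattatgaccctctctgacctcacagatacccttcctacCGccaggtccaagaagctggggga
The Cck sequence (GRCm38.p6, chr9:121495695-121495944, minus strand) holds 9 CpGs, and 40.3% of 32851 RefSeq promoter windows of this length hold at least as many. The Spata20 sequence (GRCm38.p6, chr11:94485311-94485560, minus strand) holds 4, and 62.2% of windows hold at least as many. Neither window is part of a captured region, since by the table's own distances the Cck regions were centred 1609 and 1989 bp before the start and the Spata20 regions 469 and 2083 bp before it. The mm9 sequence of the regions themselves was not used here.

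All region coordinates are in mm9. In the Cck stretch the first region (chromosome 9, 121406286 to 121406545) had 3 naive reads, 1 Th1 read and 9 Treg reads, and the second (121406661 to 121406930) had 0, 2 and 5. In the Spata20 stretch the first region (chromosome 11, 94347847 to 94348076) had 3 naive reads, 1 Th1 read and 7 Treg reads, and the second (94349478 to 94349674) had 6, 0 and 6. At Gm12445 (chromosome 4, 46287600 to 46288308) naive and Th1 reads were the same in both regions, 3 and 1, with 10 and 6 Treg reads. Pde4b, a cAMP phosphodiesterase gene, joined a promoter region with 4 naive, 0 Th1 and 13 Treg reads to an intronic region with 3, 2 and 10. The sole stretch under 2 gene names ran from exon 1 of Esam, an endothelial adhesion gene, into the promoter of Vsig2 (chromosome 9, 37344148 to 37345224). It held 5 naive, 1 Th1 and 6 Treg reads in Esam and 5, 3 and 9 in Vsig2. The region with more naive reads also had more Treg reads at Cck but not at Spata20.

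**Figure D1:**
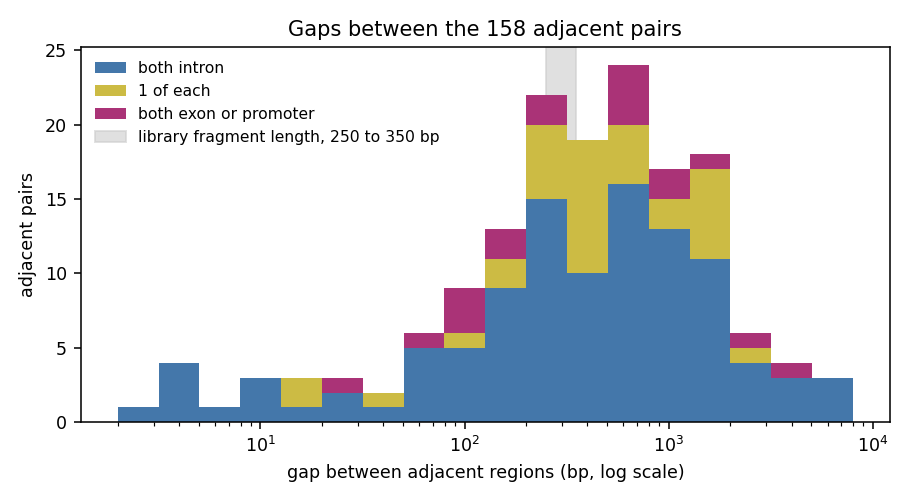
Number of adjacent pairs by the gap between their regions in bp, on a log scale, coloured by the location of the 2 regions; the grey band marks the fragment length of 250 to 350 bp kept for the libraries. The median gap was 453 bp, and 59 of the 158 pairs lay under 250 bp apart.

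The regions of a pair were close together. The gap ranged from 2 to 7109 bp with a median of 453 bp and quartiles of 180.25 and 1029 bp. In 17 pairs it was under 50 bp and in 59 pairs, 37.3%, under 250 bp, the shortest fragment kept for the libraries. If the captured DNA itself had that length, a single fragment could reach both regions of such a pair. Whether any fragment was counted in both was not tested. The shortest gap was in an intron of Arap1, a GTPase-activating protein. Its regions lay 2 bp apart (chromosome 7, 108524573 to 108525063) and held 1 and 3 naive, 3 and 2 Th1 and 12 and 7 Treg reads. Gaps of 4 or 5 bp followed in introns of A330033J07Rik, Snx29, a sorting nexin gene, and Fam155a, which encodes a subunit of a sodium leak channel. At these short gaps the reads of the paired regions were alike in some places, with 8 and 8 Treg reads in Fam155a, and apart in others, with 6 and 11 Treg reads in A330033J07Rik.

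At the other end, 7 pairs had gaps above 3000 bp. The longest were in introns of Gm11884 (7109 bp), of Eltd1, an adhesion receptor of endothelial cells (6446 bp), of Plcl1, a phospholipase C-like protein without catalytic activity (5781 bp), and of Iqch (4825 bp). The 3 regions of Krt79 and of Gm10945 had gaps of at most 532 and 755 bp. A whole stretch covered a median of 958 bp, from 431 to 7655 bp, of which the listed regions made up a median of 516 bp.

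Most stretches were intronic. Of the 314 regions 246 (78.3%) were in introns, 60 (19.1%) in exons and 8 (2.55%) in promoters, and in the whole table the shares were 78.7%, 16.6% and 4.77%. Of the 156 stretches 106 were wholly intronic, 32 joined exon and intron, 13 were wholly exonic and 3 wholly in promoters. Median region length was 245 bp, against 249 bp in the table. Chromosome 16 had the highest share of its listed regions in stretches, 5.87% or 20 of 341, and chromosome X the lowest, 2 of 200.

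The stretches fell under 154 gene names, of 5349 in the table. For 51 of these genes the stretch held every region the table lists. The genes of stretches had a median of 3.5 listed regions, against 1 in the other 5195 genes, and a gene with more regions has more chances of a neighbouring pair. Fgfr2, a fibroblast growth factor receptor gene, had 39 listed regions and 2 stretches, Eps8, an actin regulator gene, 7 and 2, and Stard13, the gene of a GTPase-activating protein, 4 and 2. The 2 Fgfr2 stretches lay 1302 kb apart, and their position relative to the ends of the gene was not examined.

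Over the Th17 and Th1, Treg, Th2 and Tfh, T cell receptor and naive lists, 1 of 36 genes in the table (2.78%) had a stretch. A share that rests on 1 gene cannot be compared with that of all genes. Of 29 Th17 and Th1 genes looked up, 11 had a region in the table and 1, Il1r1, had a stretch. The lists of Treg, Th2 and Tfh genes (9 in the table), T cell receptor and activation genes (9), naive T cell genes (7), DNA methylation and chromatin genes (11), B cell, myeloid and NK genes (10) and adhesion genes (6) had 0 in a stretch. Neuronal genes had 4 of 27, namely Auts2, Cacna1c, Dpp6 and Dscam. The table covered nearly all of this list, 27 of its 28 genes, and the list was chosen with earlier results known. Auts2, Cacna1c, Dpp6 and Dscam had 21, 11, 12 and 11 listed regions, against a median of 1 in genes without a stretch. The neuronal share therefore cannot be compared with that of all genes, and whether it exceeds what these region numbers give was not tested. Among all gene names of the table, 2.88% had a stretch. By symbol, 7 of 115 ion channel and neurotransmitter receptor genes had a stretch, 4 of 39 phosphatase and phosphodiesterase genes, 3 of 128 solute carriers, 2 of 92 small GTPase regulators, 0 of 58 Zfp genes and 15 of 656 genes named by clone or model alone. The phosphodiesterases were Pde4b, Pde4d and Pde10a, and the channel genes included the glutamate receptor genes Grid1, Grik1 and Grik4. Gene length was not taken into account.

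The reads per region were close to those of the table. Mean reads per region were 3.37 ± 1.51 in naive (SD over 314 regions), 1.90 ± 1.18 in Th1 and 7.35 ± 3.46 in Treg cells. Over all 10000 regions they were 3.43 ± 1.57, 1.95 ± 1.33 and 7.46 ± 3.17. The highest reads in a member were 8 naive, 6 Th1 and 19 Treg, against 18, 9 and 25 in the table. Of the 314 regions 5 had no naive read, 27 (8.60%) no Th1 read and 1 no Treg read, and 282 (89.8%) were read in all 3 libraries. Of all 10000 regions, 12.3% had no Th1 read and 85.9% were read in all 3. The first region of Klhl1, a kelch-like gene, was the one without a Treg read. Exonic members had a mean of 8.72 Treg, 2.23 Th1 and 3.27 naive reads and intronic ones 6.996, 1.84 and 3.39. In the table these means were 8.18, 2.04 and 3.30 in exons and 7.29, 1.94 and 3.45 in introns, so exons were higher in Treg and Th1 and lower in naive reads in both sets.

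**Figure D2:**
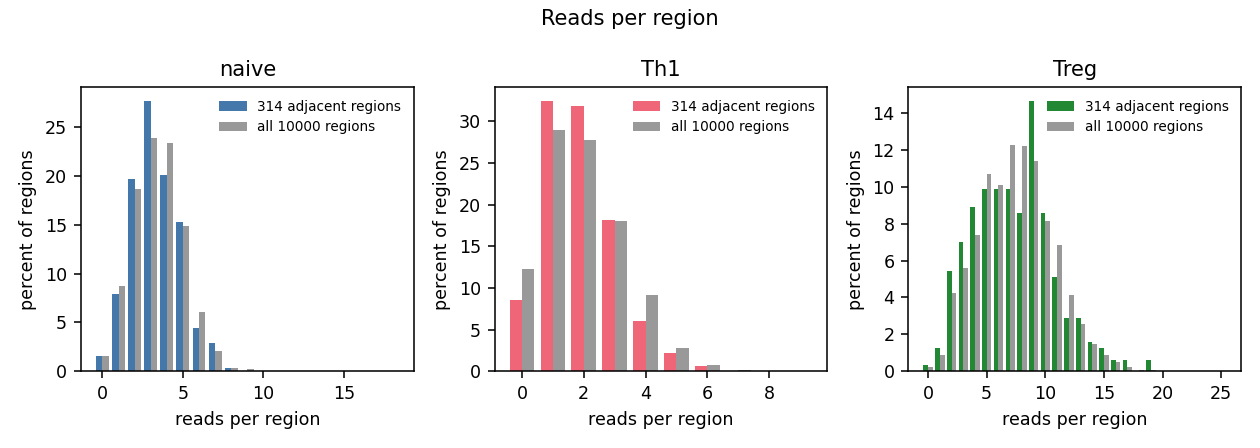
Percent of regions (y axis) by number of reads per region (x axis) for the 314 adjacent regions (coloured) and all 10000 regions (grey) in the naive, Th1 and Treg libraries. Both sets have medians of 3 naive, 2 Th1 and 7 Treg reads.

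Regions just inside and just outside the rule had like values. Pairs with numbers 1 apart had means of 3.36 naive, 1.89 Th1 and 7.34 Treg reads per region. The 125 pairs with numbers 2 apart had 3.61, 1.97 and 7.68, with a median gap of 1868 bp. Counts of pairs were 89 at a number difference of 3, 137 at 4 and 106 at 5, and between 100 and 137 at 6 to 10, so 158 was the highest of the 10 counts. At a difference of 1 the paired regions carried the same gene name in 99.4% of pairs, and in 96.0% at a difference of 2.

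Within a pair, the reads of one region said little about those of the other. Across the 158 pairs, Pearson's r between the reads of the first and second region was -0.058 in naive, 0.058 in Th1 and -0.036 in Treg cells, and Spearman's rank correlation was -0.052, 0.061 and -0.0056. These are descriptions across pairs, which share a library, a low read number and the unknown choice of the listed regions, and a weak correlation in such sparse counts is no finding. At a number difference of 2 Pearson's r was 0.137, 0.108 and -0.010. Reads were equal within a pair in 24 pairs for naive, 39 for Th1 and 13 for Treg cells, and differed by at most 1 read in 80, 108 and 47. In the 59 pairs under 250 bp apart Pearson's r was 0.096, 0.072 and -0.082, and in the 42 pairs 1000 bp or more apart -0.320, -0.013 and 0.064.

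**Figure D3:**
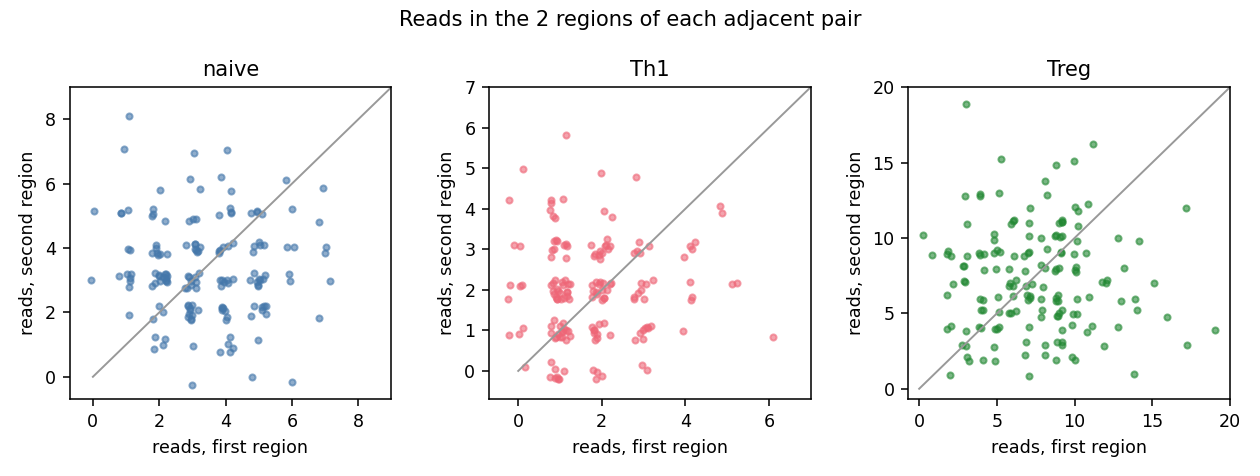
Reads in the first region (x axis) and second region (y axis) of each of the 158 adjacent pairs in the naive, Th1 and Treg libraries, with a small random offset to separate points and the line of equal reads in grey. The points form no band along the line, and the widest Treg pair is Stau2 with 3 and 19 reads.

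Some neighbours differed widely in 1 library. Stau2, which encodes an RNA transport protein, held 3 and 19 Treg reads in intronic regions 61 bp apart, with 4 and 6 naive and 1 and 2 Th1 reads. Ctsh, the gene of the lysosomal protease cathepsin H, held 19 Treg reads in exon 2 and 4 in exon 4, with 3 and 1 naive reads. Ulk4, a gene of the Ulk kinase family, held 17 and 3 Treg reads in introns. In naive cells the widest pair was an intron of Lingo1, a neuronal membrane protein gene, with 1 and 8 reads. In Th1 cells Slc6a6, the taurine transporter gene, held 6 and 1 reads in regions 10 bp apart. These pairs were chosen by the size of the difference, after their values were seen.

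In 128 of the 158 pairs (81.0%) both regions were read in all 3 libraries. With at least 2 reads asked of each region in each library, 42 pairs remained. Only 2 stretches had at least 3 reads in every region and library, Rhbdd1, a rhomboid protease gene (3 and 3 naive, 4 and 3 Th1, 6 and 5 Treg), and Otof, the gene of the calcium sensor otoferlin (5 and 3, 4 and 3, 11 and 6).

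Of all stretches, 2 held 3 regions, in Krt79 and in Gm10945. In Krt79, a keratin gene of hair follicle and sebaceous duct (ENSMUSG00000061397), the regions covered exons 7, 6 and 5 (chromosome 15, 101761019 to 101762363). They held 5, 2 and 5 naive reads, 1, 1 and 2 Th1 reads and 9, 9 and 10 Treg reads. Treg reads were thus nearly level over these 3 regions, and the rest of the gene has no listed region. The summed values were 11.95 in naive (interval 6.18 to 20.9), 6.72 in Th1 (1.83 to 17.2) and 9.87 in Treg cells (6.56 to 14.3). The interval of the log2 ratio was -2.92 to 0.89 for Th1 over naive and -1.30 to 0.83 for Treg over naive. For Treg over Th1 it was -0.96 to 2.53. Each includes 0, so no difference between the libraries was detectable at this depth. Gm10945, a predicted gene (ENSMUSG00000078488), held 3 intronic regions on chromosome 10 (3592872 to 3594805). Naive reads were 5, 4 and 5, Th1 reads 2, 1 and 0, and Treg reads 3 in each. Its summed values were 13.9 in naive (7.62 to 23.4), 5.04 in Th1 (1.04 to 14.7) and 3.17 in Treg cells (1.45 to 6.02). All 3 Treg values lay below the naive value of the same region. The mappability of Gm10945 and of the other genes named by clone or model was not examined.

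**Figure D4:**
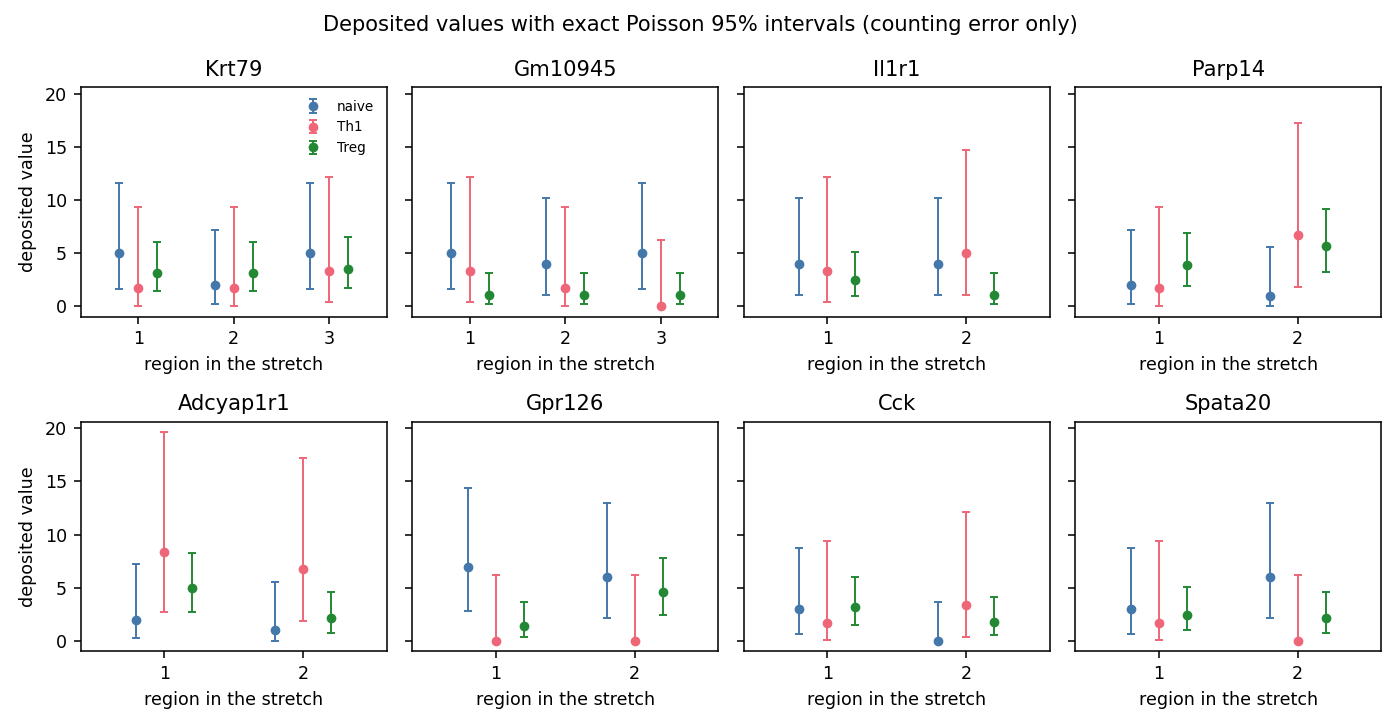
Deposited value (y axis) of each region, in order along the stretch (x axis), for 8 stretches in naive (blue), Th1 (red) and Treg (green) cells; points are values and bars are exact Poisson 95% intervals of the reads, and every Th17 value is 0. In Adcyap1r1 both Th1 points lie above both naive points, and in Gpr126 both Th1 points are at 0.

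Adding up the reads per stretch raised the depth behind each value. Medians per stretch were 6 naive, 4 Th1 and 14.5 Treg reads, with ranges of 3 to 14, 0 to 9 and 3 to 29. For comparison, 425 nearby pairs were taken, whose region numbers lay 2 to 5 apart and which held no member. The summed value was highest in naive cells in 71 stretches (45.5%, against 49.4% of nearby pairs), in Th1 cells in 59 (37.8%, against 38.6%) and in Treg cells in 26 (16.7%, against 12%). This order depended on scaling. With every library set to the same table total the counts were 53, 59 and 44 stretches (nearby pairs 37.2%, 33.9% and 28.9%). Every region of the stretch was highest in Treg cells in 3 stretches as deposited (1.92%, against 3.76%), which were Pde4b, Cnot4 and Vac14, and in 14 with equal totals (8.97%, against 9.88%). By reads per region the highest stretch was in an intron of Epb4.1l1, a membrane skeleton protein gene, with 2 and 3 naive, 2 and 3 Th1 and 17 and 12 Treg reads. It was followed by Rhox12, an X-linked reproductive homeobox gene (7 naive, 9 Th1 and 21 Treg reads in all), 2010300C02Rik (11, 6 and 19), Stau2, Usp33, a deubiquitinase gene (7, 7 and 21), Parp14 (3, 5 and 27), Nom1, a nucleolar protein gene (4, 7 and 22), and Auts2 (5, 4 and 24).

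The 3 libraries were then compared with each other for regions and for stretches, counting a log2 ratio of at least 1 in size after 0.5 was added to both values. The comparisons share libraries, so each is given on its own. Stretches were again set beside the 425 nearby pairs. Th1 was higher than naive in 56 of 314 regions (17.8%, against 19.4% of the table) and lower in 81 (25.8%, against 29.0%), of which 27 had no Th1 read. Over summed stretches Th1 was higher in 10 (6.41%, against 8.94% of nearby pairs) and lower in 25 (16.0%, against 17.2%). The median log2 ratio was -0.09 over stretches and -0.09 over nearby pairs. These shares were close to the background.

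Treg was higher than naive in 27 regions (8.60%, against 8.33% of the table) and lower in 69 (22.0%, against 22.2%). Over stretches it was higher in 4 (2.56%, against 2.35% of nearby pairs) and lower in 27 (17.3%, against 17.9%), with medians of -0.35 and -0.37. Treg was higher than Th1 in 42 regions (13.4%, against 17.0%), of which 26 had no Th1 read, and lower in 63 (20.1%, against 21.0%). Over stretches it was higher in 12 (7.69%, against 10.4%) and lower in 22 (14.1%, against 14.8%), with medians of -0.32 and -0.23. These splits depended on scaling. With equal table totals, which moved the table's median log2 ratio by 0.33 for Treg over naive and by 0.28 for Treg over Th1, stretches were higher and lower in 13 and 13 cases against naive (nearby pairs 7.53% and 7.06%) and in 20 and 9 against Th1 (14.4% and 6.59%). Regions were then higher and lower in 48 and 48 cases against naive (15.3% each, against 15.2% and 12.3% of the table). Against Th1 they were higher and lower in 73 and 46 cases (23.2% and 14.6%, against 22.6% and 15.2%).

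**Figure D5:**
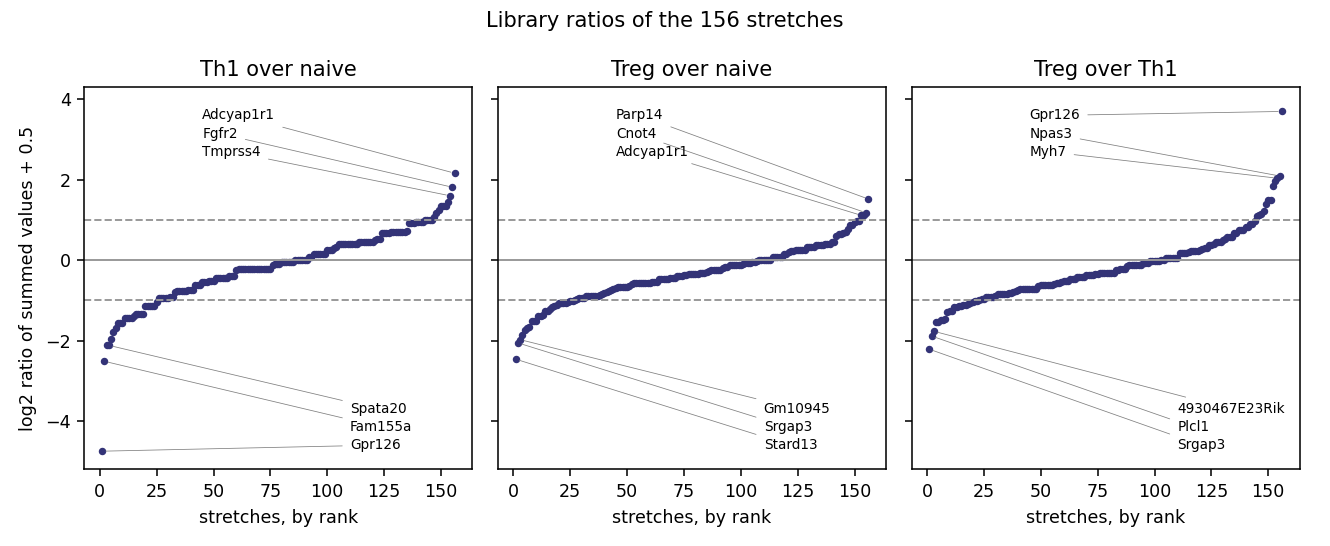
Log2 ratio of the summed deposited values with 0.5 added (y axis) for the 156 stretches in order of the ratio (x axis), for Th1 over naive, Treg over naive and Treg over Th1; dashed lines mark ratios of 1 and -1. The 3 stretches at each end are named, and Gpr126 lies far from the others where Th1 is compared because it has no Th1 read.

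The stretches at the ends of these rankings rest on few reads, and they were named for their size out of 156, so size and interval are descriptions. Intervals here are those of the log2 ratio without the added 0.5. In Th1 over naive the highest stretch was in exon 16 of Adcyap1r1, the receptor gene of the neuropeptide PACAP (chromosome 6, 55450895 to 55451734). Its regions held 2 and 1 naive, 5 and 4 Th1 and 14 and 6 Treg reads. Its log2 ratio of Th1 over naive was 2.16 (interval 0.34 to 4.86). Fgfr2 followed with 0 and 3 naive and 4 and 3 Th1 reads (1.81, -0.15 to 4.56), and then Tmprss4, a membrane serine protease gene, with 1 and 2 naive and 3 and 3 Th1 reads (1.60, -0.47 to 4.38). In Adcyap1r1, Tmprss4 and Drd2, a dopamine receptor gene, every region passed the limit on its own, which is 3 of 156 stretches (1.92%, against 4.24% of nearby pairs).

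At the other end was an intron of Gpr126, an adhesion receptor required for myelination by Schwann cells (chromosome 10, 14258210 to 14258824). It was the sole stretch without a Th1 read. Its regions, 99 bp apart, held 7 and 6 naive, 0 and 0 Th1 and 4 and 13 Treg reads. The exact interval of the log2 ratio of Th1 over naive reached up to -0.85. That of Treg over Th1 reached down to -0.21 and so includes no difference. With Th1 set at 3 reads over the stretch, Treg over Th1 no longer passed the limit, which left 11 stretches higher. Fam155a held 7 and 5 naive and 0 and 1 Th1 reads (-2.51, interval -8.25 to -0.07). Spata20 held 9 naive reads and 1 Th1 read (-2.12, -7.87 to 0.44), and Lingo1 held the same totals. In 8 stretches (5.13%, against 7.76% of nearby pairs) every region was lower in Th1 than in naive cells by the limit, among them Atm, the DNA damage kinase gene, Myh7, Camta1 and Ulk4, and with equal totals in 4 (2.56%, against 4%).

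Treg cells led naive cells most in Parp14, an ADP-ribosyltransferase gene active in interleukin 4 signalling (chromosome 16, 35865044 to 35865551). Exon 3 held 2 naive, 1 Th1 and 11 Treg reads, and the intronic region 14 bp further held 1, 4 and 16. Its log2 ratio of Treg over naive was 1.52 (interval -0.03 to 4.04). Cnot4, a ubiquitin ligase gene of a deadenylation complex, followed with 2 and 1 naive and 8 and 13 Treg reads (1.18, -0.44 to 3.70), and then Adcyap1r1 (1.11, -0.52 to 3.63). In 0 stretches was every region higher in Treg than in naive cells by the limit (0.706% of nearby pairs), and with equal totals in 3 (1.92%, against 3.29%).

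Naive cells led Treg cells most in the first Stard13 stretch (chromosome 5, 151882866 to 151883463), with 6 and 6 naive and 3 and 2 Treg reads and a log2 ratio of Treg over naive of -2.46 (interval -4.62 to -1.15). The second Stard13 stretch (152027141 to 152028347) held 1 and 3 naive and 8 and 7 Treg reads, with a log2 ratio of 0.37 (-1.24 to 2.46). This interval includes 0, and by deposited value its first region was higher and its second lower in Treg than in naive cells. Srgap3, the gene of a GTPase-activating protein of axon guidance, held 3 and 3 naive and 2 and 1 Treg reads (-2.06, -5.13 to -0.27). Gm10945 was next (-1.98, -3.53 to -0.83). In 9 stretches (5.77%, against 4.47% of nearby pairs) every region was lower in Treg than in naive cells by the limit, including Stard13, Srgap3, Gm10945, Eltd1, Col24a1 and Atm, and with equal totals in 7 (4.49%, against 1.41%).

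Between Treg and Th1, Gpr126 was followed by Npas3, a transcription factor gene of neurons, with 0 and 1 Th1 and 10 and 15 Treg reads (2.09, interval -0.22 to 7.75). Exons 22 and 19 of Myh7, the slow cardiac myosin gene, held 1 and 0 Th1 and 9 and 15 Treg reads (2.04, -0.29 to 7.69). The lowest were Srgap3 (-2.21, -5.44 to -0.11), Plcl1 with 2 and 5 Th1 and 5 and 3 Treg reads (-1.89, -3.72 to -0.37), and 4930467E23Rik with 0 and 5 Th1 and 2 and 4 Treg reads (-1.77, -3.97 to 0.06). In 5 stretches (3.21%, against 3.29% of nearby pairs) every region was higher in Treg than in Th1 cells by the limit, and in 4 (2.56%, against 4.94%) every region was lower. With equal totals these counts were 9 (5.77%, against 6.35%) and 2 (1.28%, against 2.82%).

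Il1r1 encodes the receptor for interleukin 1, a cytokine that promotes Th17 differentiation. Its stretch lay in an intron (ENSMUSG00000026072, chromosome 1, 40321484 to 40322108) with a gap of 164 bp. Both regions held 4 naive reads, with 2 and 3 Th1 and 7 and 3 Treg reads. Naive and Th1 values were alike in sum, 7.97 (interval 3.44 to 15.7) and 8.40 (2.73 to 19.6), and the Treg sum was 3.52 (1.69 to 6.48). The log2 ratio of Treg over naive was -1.07 (-2.67 to 0.37), and that of Treg over Th1 was -1.15 (-2.94 to 0.64). Both intervals include 0, and with equal table totals neither ratio reached the limit. Il1r1 had 2 further regions in the table that were in no stretch.

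Other immune genes with a stretch were named after their values were seen. Il27ra, a receptor chain for interleukin 27, joined exon 8 to an intron (chromosome 8, 86559808 to 86561391) with 2 and 3 naive, 2 and 1 Th1 and 5 and 2 Treg reads. Csf2rb2, a beta chain of the interleukin 3 receptor, held 0 and 5 naive, 3 and 2 Th1 and 6 and 7 Treg reads, and Csf2rb is a close copy of it, so the origin of its reads is uncertain. Pdcd1lg2, the gene of the PD-1 ligand PD-L2, held 3 and 3 naive, 2 and 1 Th1 and 6 and 7 Treg reads in introns 180 bp apart. In these 3 genes the stretch held all regions listed, and no log2 ratio of the summed values reached 1 in size.

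Among the neuronal genes, Dscam, a neural adhesion gene, joined exon 13 to an intron with 6 and 3 naive, 2 and 3 Th1 and 10 and 8 Treg reads. Cacna1c, a calcium channel gene, held 1 and 3, 3 and 1, and 7 and 9. Dpp6, a potassium channel accessory gene, held 3 and 2, 1 and 2, and 9 and 8. Their summed values differed between libraries by less than the limit in all 3 comparisons.

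The 13 wholly exonic stretches covered different kinds of gene. Besides Krt79, Adcyap1r1, Ctsh and Myh7 they lay in Ryr1, the calcium release channel gene of skeletal muscle (exons 44 and 43; 4 and 4 naive, 1 and 3 Th1 and 9 and 8 Treg reads), and Muc5b, an airway mucin gene (exons 34 and 35; 2 and 3, 3 and 2, and 9 and 10). The others were Galnt5, Mfap3, Rnf17, Calcoco1, Cpne5, 3110079O15Rik and 2610037D02Rik.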

How the data were processed

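Methylated DNA was captured from 4 populations with 1 library each. Per the labels' protocols, libraries were made from 250 ng of precipitate and cut from a gel at 250 to 350 bp. Bowtie 0.12.7, FastQC and mm9 are named in the submitters' processing notes, without their roles, and the sources used here do not say how regions were numbered, called and chosen. The deposited table gives a signal per region and library, a scaled number of reads. All naive, Th1 and Treg values were whole multiples of 1 constant per library (100%, relative tolerance 1e-06), and division by it gave the reads. All 4 value columns were matched to samples by name.

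Ratios used a pseudocount of 0.5 and a limit of 1 on the log2 scale (a 2-fold difference). Intervals were exact Poisson, or exact conditional for ratios, at 95%. An exact binomial test of the Treg and Th1 reads, with Benjamini-Hochberg adjustment over all 10000 regions, was tried on simulated reads. In these, values were raised 3 times and 8-fold changes were put in. That trial does not show what the test can call at the depth of these data. Python 3.11.15, pandas 2.3.3 and scipy 1.17.1 were used. The members, gene lists and settings were chosen with earlier results of these data known. Named stretches were those with 3 regions, the 8 with most reads per region, the 4 shortest and 4 longest gaps, the 3 largest ratios in each direction, stretches without introns, stretches under different gene names, and stretches with a listed gene. Any other gene named in the text was chosen after its values were seen. The 8 lists and 8 symbol families are those counted in the text, with cadherins, contactins and neurexins (0 of 37) and matrix and metalloprotease genes (1 of 65). Alternatives were other pseudocounts, limits, scaling, filters and definitions of a stretch.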

Additional observations from a re-analysis of the deposited data

How the results depend on the processing

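Of 73 alternative counts, 22 stayed within 1.5 times the reported one and 51 did not. Counts and not shares were compared, so an alternative with more or fewer units could leave that range with its share almost unchanged. For example, Treg was lower than naive in 17.5% of stretches with numbers 1 or 2 apart, against 17.3% as reported. Counts follow in the order Th1 higher and lower than naive, Treg higher and lower than naive, and Treg higher and lower than Th1, where the reported counts were 56, 81, 27, 69, 42 and 63 regions and 10, 25, 4, 27, 12 and 22 stretches. Apart from equal table totals and the binomial test, the whole table and nearby pairs were not counted under the alternatives. Those counts therefore do not compare members with the background. A pseudocount of 5 gave 3, 7, 1, 2, 1 and 3 regions and 2, 5, 0, 2, 3 and 1 stretches. A limit of 1.5 on the log2 scale gave 27, 37, 13, 47, 23 and 25 regions and 3, 10, 1, 10, 5 and 5 stretches. Equal table totals gave 56, 56, 48, 48, 73 and 46 regions and 14, 24, 13, 13, 20 and 9 stretches. Keeping regions or stretches whose highest value was at or above the median gave 50, 41, 16, 46, 17 and 52 regions and 10, 15, 3, 17, 6 and 18 stretches, with fewer units counted. Joining numbers 1 or 2 apart gave 269 stretches, of which 23, 50, 7, 47, 28 and 37 passed, and 220 pairs read in all 3 libraries, against 128. Gaps of at most 500 bp left 86 stretches, of which 7, 14, 4, 14, 5 and 9 passed. With at least 2 reads per region and library 42 pairs remained. One gene name per stretch left 155 stretches and the same counts. A binomial test (exact, on recovered reads), added after the data were examined, called 0 of 10000 regions between the Treg and Th1 libraries and thus 0 members higher and 0 lower; unadjusted, at a limit of 0.05, 0 were higher and 501 lower in the table, and 0 and 9 among the members. That test compares 2 libraries, not the cell types. At this Th1 depth, even 0 Th1 reads beside 25 Treg reads, the highest in the table, could not pass the adjustment. The test could therefore call no region higher in Treg cells, and the 0 higher is no finding. The low Th1 depth also shapes the unadjusted counts, so their split between higher and lower gives no direction. No paired analysis was possible because each population has 1 library. With a median of 4 Th1 reads per stretch, a stretch low in Th1 could hardly be told from one without a difference.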
